A study of Mus musculus with 8 samples.

Results

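The genes described here are 32 markers of the choroid plexus epithelium, followed in forebrain RNA of TgCRND8 mice (Tg) and their non-transgenic littermates (NTg). They were taken as the rows of the count table whose Ensembl identifier maps to a fixed list of choroid plexus symbols, and all 32 of the 32 symbols were found among the 56748 genes of the table and were abundant enough to be tested. The Tg mice overexpress the human amyloid precursor protein with the Swedish and Indiana mutations from a hamster prion promoter, which drives expression mainly in neurons. All mice were 18 months old, all 8 libraries (4 Tg and 4 NTg) carry the batch value F, and no other treatment is named. Polyadenylated RNA came from pulverised frozen forebrain of a single hemisphere, so that each library mixes all cell types of the tissue, the ventricular lining included. The labels number the replicates but do not say that each library is a separate animal. The p-values then set the genotype difference against the spread between libraries within genotype, which may not be that between animals.

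The choroid plexus is a sheet of cuboidal epithelial cells over a fenestrated capillary bed that hangs into the brain ventricles and makes most of the cerebrospinal fluid. Its cells move sodium, chloride, bicarbonate and water toward the ventricle, close the barrier between blood and fluid with tight junctions, and release carrier proteins, the best known of which is transthyretin. The epithelium arises from the roof plate of the neural tube, and homeodomain factors such as OTX2 are needed for its formation and upkeep. In bulk tissue, fewer choroid plexus cells and less RNA per cell cannot be told apart, and neither can the amount of the plexus that stayed in the dissected tissue.

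Libraries held 57129090 to 65242741 counts and 31241 to 32069 genes with a count. App, whose row can also collect transgene reads, ranged from 1390 to 1623 CPM (counts after scaling for library size) in NTg and from 2532 to 2980 CPM in Tg, with no overlap between the labelled genotypes. Summed haemoglobin levels lay between 1279 and 3253 CPM in NTg. They were 2988 CPM for Tg replicate 1, with 447 to 729 CPM for Tg replicates 2 to 4. Genes of the cerebellum and hindbrain were present in every library (summed 439.6 to 956 CPM in NTg, 693 to 845 CPM in Tg), although the RNA is described as from forebrain.

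All 32 members had a lower fitted level in Tg than in NTg, by log2 fold changes from -1.06 to -0.03, with a median of -0.48 against -0.0024 over all 21588 genes tested. Of all genes tested, 50.8% had a lower fitted level in Tg. The quasi-likelihood test of edgeR called 0 of the 32 members at an adjusted p under 0.05, where it called 0.0139% of all genes in either direction and 0.00463% as lower. At an unadjusted p under 0.05, 18 members were lower and 0 higher, against 2.68% of all genes lower and 4.68% higher. DESeq2, used as an alternative, called 12 members lower and 0 higher (of all genes with an adjusted p, 0.255% and 1.39%), and limma-voom called 0 (0.00463% of all genes lower). In 10 members every Tg library lay below every NTg library, which held for 1.58% of all genes, and in 0 members did the reverse hold (2.62%). The 10 became 16 without NTg replicate 3 (2.80% of all genes) and 19 without Tg replicate 4 (2.90%), the libraries that lay nearest to the other genotype. The members were chosen with earlier results of these data known, so these counts are descriptions and no p is given for the list.

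The score of a library, the mean log2 CPM over the 32 members relative to the NTg mean, was 0.01, 0.06, -0.19 and 0.12 in NTg replicates 1 to 4 and -0.52, -0.63, -0.72 and -0.27 in Tg replicates 1 to 4. The Tg mean was -0.53 ± 0.19 and the NTg mean 0 ± 0.14 (SD, n = 4), and the genotypes did not overlap, with a gap between NTg replicate 3 and Tg replicate 4 that was smaller than the SD of either genotype. Summed over members, the levels were 1728 ± 197 CPM in NTg against 1105 ± 181 CPM in Tg. Ttr alone supplied 38.2 to 46.3% of this sum in NTg and 29.3 to 39.3% in Tg. Without Ttr and Enpp2 the sum was 343 ± 25.7 CPM in NTg against 259 ± 14.5 CPM in Tg. The difference of the means, Tg minus NTg, was -83.2 CPM without this pair and -623 CPM with it. Most of the lower sum thus came from those abundant transcripts, and the remaining members were also lower in sum.

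**Figure D1:**
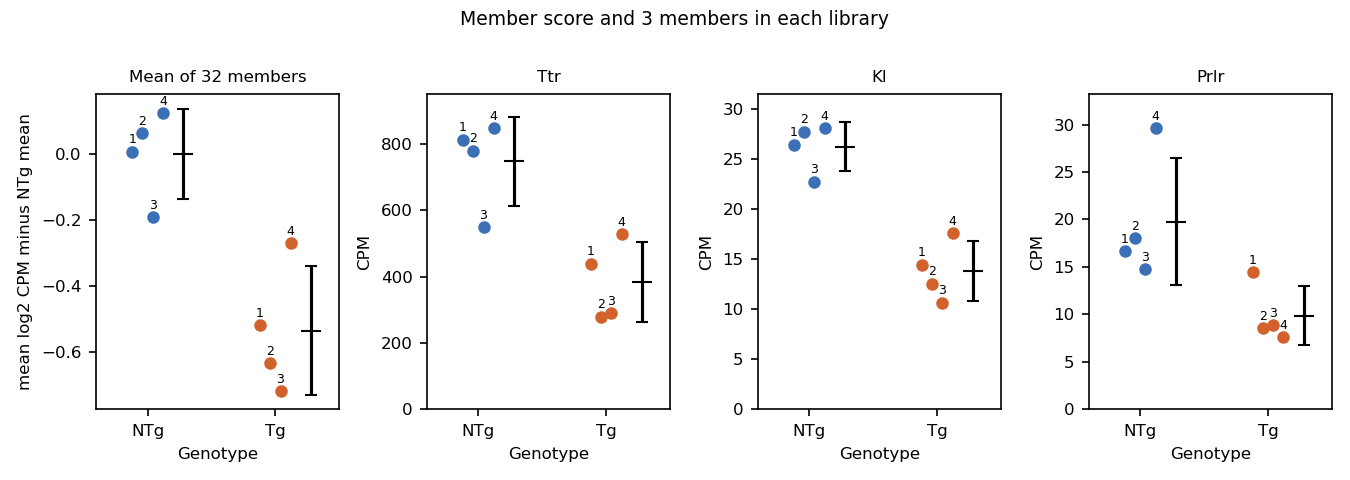
Member score (mean log2 CPM of the 32 members minus the NTg mean) and CPM of Ttr, Kl and Prlr in each library, with numbers for replicates and black bars for mean and SD of 4 libraries. All Tg points lie below all NTg points in each panel. For Ttr, Tg replicate 4 (528 CPM) comes close to NTg replicate 3 (549 CPM), and for Prlr, Tg replicate 1 (14.5 CPM) to NTg replicate 3 (14.8 CPM).

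Members did not all differ to the same extent. Of the 32, 11 members had a log2 fold change under -0.7, 9 lay between -0.7 and -0.35, and 12 lay above -0.35. All 11 in the first band had an unadjusted p under 0.05, as did 6 in the second and 1, Cab39l, in the third. Bands and p-values come from the same fit, so the larger differences tend to have the smaller p. The matching shares of all genes were not counted. By role, the median log2 fold change was -0.98 for the 3 receptors, -0.69 for the 6 secreted proteins and -0.51 for the 9 channels and transporters. It was -0.40 for the 4 other intracellular and membrane proteins and -0.30 for the 3 transcription factors. For the 5 junction and keratin genes it was -0.30, and for the 2 carbonic anhydrases -0.26.

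**Figure D2:**
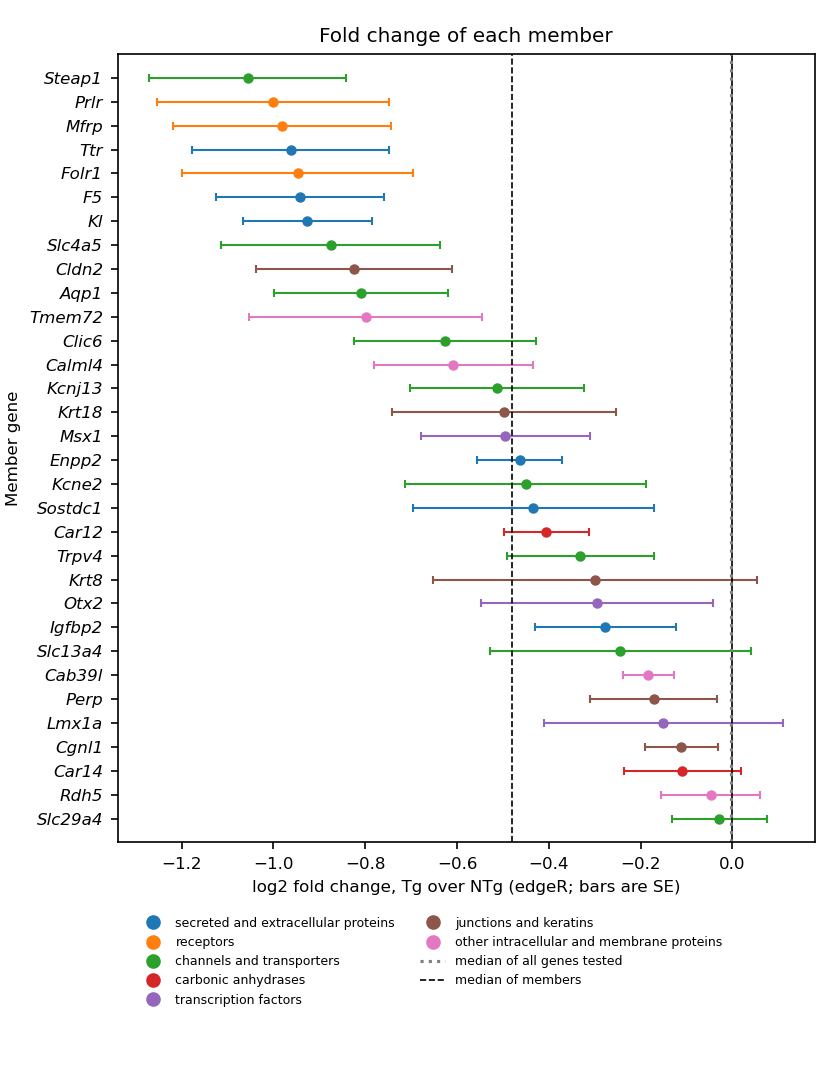
Fitted log2 fold change (Tg over NTg) of each member with its SE, coloured by role. All points lie left of 0, from Steap1 at -1.06 to Slc29a4 at -0.03. The dashed line marks the members' median of -0.48 and the dotted line the median of all genes tested.

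Among the secreted proteins, Ttr encodes transthyretin, which carries thyroxine and, bound to retinol-binding protein, retinol into the cerebrospinal fluid. It stood at 813, 780, 549 and 848 CPM in NTg replicates 1 to 4 and at 438.5, 279, 289 and 528 CPM in Tg replicates 1 to 4. Every Tg library lay below every NTg library, by a narrow margin between NTg replicate 3 and Tg replicate 4 (log2 fold change -0.96, SE 0.22, edgeR adjusted p = 0.167, DESeq2 adjusted p = 0.0171). Per kilobase of exon, Ttr had the highest level of the members, at 630 CPM per kb in NTg and 323 CPM per kb in Tg. Enpp2 followed at 110 and 79.96 CPM per kb, and the other 30 members lay between 0.256 and 18.6 CPM per kb in NTg.

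Kl encodes klotho, a membrane co-receptor for FGF23 that is also shed into the fluid. Its level was 26.4, 27.7, 22.7 and 28.1 CPM in NTg and 14.4, 12.5, 10.6 and 17.6 CPM in Tg. This member had the smallest p (log2 fold change -0.93, SE 0.14, edgeR adjusted p = 0.0972, DESeq2 adjusted p = 1.03e-07), and the gap between the genotypes, from 17.6 to 22.7 CPM, exceeded the SD within each (2.45 and 2.97 CPM). F5, which encodes coagulation factor V and is a known transcript of this epithelium, was at 10.5, 9.20, 6.70 and 11.2 CPM in NTg and 5.15, 4.16, 4.08 and 6.15 CPM in Tg. Its groups did not overlap either (log2 fold change -0.94, SE 0.18, edgeR adjusted p = 0.121, DESeq2 adjusted p = 6.81e-05).

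Enpp2 encodes autotaxin, a secreted enzyme that makes lysophosphatidic acid, and is expressed by oligodendrocytes as well. It stood at 715, 639, 576 and 619 CPM in NTg and 442, 410, 456 and 540 CPM in Tg (fitted log2 fold change -0.46, SE 0.09, edgeR adjusted p = 0.123, DESeq2 adjusted p = 0.000448). No Tg library reached the lowest NTg library. Oligodendrocyte genes were lower in Tg by a median of -0.15 (8 of 8 lower, 0 called by edgeR or DESeq2 and 1 at an unadjusted p under 0.05), and NTg replicate 1, the highest in Enpp2, was also the highest in that list, at 0.27 above the NTg mean. The part of these cells in the Enpp2 difference was not tested.

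Igfbp2 and Sostdc1 complete the secreted group and overlapped between genotypes. Igfbp2, which binds insulin-like growth factors, was at 28.4, 40.6, 33.4 and 34.9 CPM in NTg and 20.0, 32.8, 29.6 and 31.0 CPM in Tg. Sostdc1, an antagonist of BMP and Wnt signals, was at 6.09, 5.78, 11.6 and 4.73 CPM in NTg and 3.92, 5.94, 5.63 and 5.37 CPM in Tg. In Sostdc1, 1 library, NTg replicate 3, stood apart from the other NTg libraries, and without it the log2 fold change moved from -0.43 to -0.09. Adjusted p-values of edgeR were 0.785 for Igfbp2 and 0.825 for Sostdc1.

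The 3 receptors had the lowest median of the roles. Prlr encodes the prolactin receptor. It was at 16.7, 18.0, 14.8 and 29.6 CPM in NTg and 14.5, 8.50, 8.88 and 7.61 CPM in Tg (fitted log2 fold change -1.001, SE 0.25, edgeR adjusted p = 0.214, DESeq2 adjusted p = 0.0603). NTg replicate 4 was high and Tg replicate 1 nearly level with NTg replicate 3, while Tg replicate 4, the highest Tg library in most other members, was the lowest here. Folr1, the folate receptor that carries folate across the epithelium, was at 4.46 to 5.999 CPM in NTg and 1.55 to 4.01 CPM in Tg without overlap (log2 fold change -0.95, SE 0.25, edgeR adjusted p = 0.258, DESeq2 adjusted p = 0.00863). Mfrp encodes a frizzled-related membrane protein known from the pigment epithelium of the eye. It was at 3.87 to 5.73 CPM in NTg and 1.84 to 3.89 CPM in Tg, with Tg replicate 4 just above NTg replicate 3 (log2 fold change -0.98, edgeR adjusted p = 0.195, DESeq2 adjusted p = 0.00303). The Mfrp locus overlaps that of C1qtnf5, so its counts may hold reads of that gene.

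Channels and transporters make up the largest role, with 9 members. Clic6, a chloride intracellular channel gene, was at 20.1, 21.2, 16.7 and 22.5 CPM in NTg and 17.8, 9.29, 9.91 and 15.2 CPM in Tg, so that Tg replicate 1 overlapped NTg replicate 3 (log2 fold change -0.63, edgeR adjusted p = 0.382, DESeq2 adjusted p = 0.0539). The water channel Aqp1 ranged from 3.99 to 6.78 CPM in NTg and from 2.35 to 3.42 CPM in Tg without overlap (log2 fold change -0.81, SE 0.19, edgeR adjusted p = 0.177, DESeq2 adjusted p = 0.00347). The sodium bicarbonate cotransporter gene Slc4a5 ranged from 4.74 to 7.59 CPM in NTg and from 2.29 to 5.11 CPM in Tg, where only Tg replicate 4 overlapped NTg (log2 fold change -0.88, edgeR adjusted p = 0.273, DESeq2 adjusted p = 0.0116). These 3 genes, which serve chloride, water and bicarbonate movement, stood lower in Tg by 35.2 to 45.5% in their means. They are a part of the role, whose 9 members had a median log2 fold change of -0.51, with 3 called lower by DESeq2.

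Steap1, a gene of the STEAP metalloreductase family, had the largest log2 fold change of the members (-1.06, SE 0.21, edgeR adjusted p = 0.127, DESeq2 adjusted p = 0.00630). It was at 1.01 to 1.10 CPM in NTg and 0.312 to 0.651 CPM in Tg, on 19 or more counts per library. The potassium channel genes differed less: Kcnj13 ranged from 1.67 to 2.42 CPM in NTg and 1.06 to 1.82 CPM in Tg (fitted log2 fold change -0.51), and Kcne2, an auxiliary subunit, from 2.63 to 5.26 and 2.17 to 4.44 CPM (-0.45). Trpv4, a cation channel gated by osmotic and mechanical stimuli, had a log2 fold change of -0.33. All 3 overlapped between genotypes, with edgeR adjusted p-values of 0.525, 0.807 and 0.712.

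Slc13a4 and Slc29a4 showed other patterns. Slc29a4, a monoamine and nucleoside transporter gene that neurons express too, was at 16.0, 19.1, 17.9 and 16.3 CPM in NTg and 20.0, 14.7, 15.4 and 17.8 CPM in Tg, with means that differed by 1.96% (edgeR adjusted p = 0.987). Slc13a4, a sulfate transporter gene also known from the meninges, was at 8.59, 16.1, 13.2 and 13.3 CPM in NTg and 6.84, 17.0, 11.7 and 7.75 CPM in Tg (fitted log2 fold change -0.24, SE 0.28, edgeR adjusted p = 0.939). It was low in NTg replicate 1 and in Tg replicates 1 and 4, and high in replicate 2 of both genotypes. A list of 14 tested genes of leptomeningeal and choroid stromal fibroblasts was low and high in the same libraries, at -0.66, 0.45, 0.14 and 0.06 in NTg replicates 1 to 4 and -0.36, 0.57, 0.26 and -0.36 in Tg replicates 1 to 4, relative to the NTg mean. That list had a median log2 fold change of 0.05, with 6 of 14 lower and 0 called or past an unadjusted p of 0.05. Its summed level was 488 to 1156 CPM in NTg and 564 to 1017 CPM in Tg, and none of its genes was at 0 counts in all libraries. The part of these cells in the levels of Slc13a4 and Igfbp2 was not tested.

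**Figure D3:**
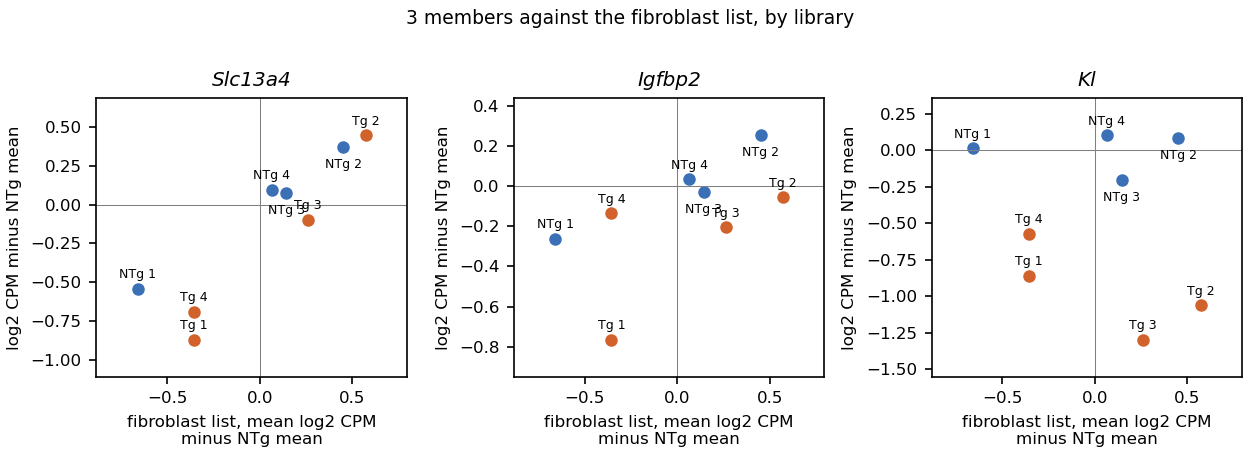
Levels of Slc13a4, Igfbp2 and Kl by library (log2 CPM minus the NTg mean, vertical) against the mean of the fibroblast list (horizontal, same scale). Slc13a4 is low in the 3 libraries where the list is low, NTg replicate 1 and Tg replicates 1 and 4. All Tg points of Kl lie below all NTg points, though the levels of the list are not matched between genotypes.

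Carbonic anhydrases supply bicarbonate and protons for fluid secretion, and both members are membrane-bound forms. Car12 was at 28.2, 26.7, 25.6 and 26.8 CPM in NTg and 24.3, 18.2, 17.9 and 20.6 CPM in Tg, without overlap (log2 fold change -0.41, SE 0.09, edgeR adjusted p = 0.169, DESeq2 adjusted p = 0.00623). Car14, which other brain cells express too, was at 17.5, 16.0, 11.8 and 13.8 CPM in NTg and 15.6, 12.1, 14.4 and 12.8 CPM in Tg. Its groups overlapped (log2 fold change -0.11, SE 0.13, edgeR adjusted p = 0.939).

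The transcription factors, which mark the roof plate origin of the epithelium, had a median of -0.30, and both edgeR and DESeq2 called 0 of the 3, with Msx1 alone at an unadjusted p under 0.05. Otx2 was at 6.67, 5.61, 5.54 and 8.17 CPM in NTg and 7.08, 6.59, 2.98 and 4.51 CPM in Tg. Tg replicates 1 and 2 lay within the NTg range, and Tg replicates 3 and 4 lay below it (log2 fold change -0.30, SE 0.25, edgeR adjusted p = 0.906). Without 1 library the value ranged from -0.47 (without Tg replicate 1) to -0.10 (without Tg replicate 3). Msx1 ranged from 3.53 to 5.56 CPM in NTg and 2.56 to 3.99 CPM in Tg (fitted log2 fold change -0.49, edgeR adjusted p = 0.525). Lmx1a, at 0.764 to 1.02 CPM in NTg and 0.516 to 1.15 CPM in Tg, overlapped in both directions (-0.15, adjusted p = 0.967).

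Promoter sequences were looked up because OTX2 is itself a member. They span 250 bases before to 50 after the annotated start (RefSeq, GRCm38.p6, an older build than that of the counts), and 26 of the 32 members had an entry, with 34 promoters in all. The letters TAATCC, the core bound by OTX factors, were searched on both strands and found in 3 of the 34 (8.82%), against 7.06% of all 32851 promoters in the table. TAATTA, a core of LMX1A and many homeodomain factors, was in 2 of 34 (5.88%, against 5.29% of all), and the TATA box letters TATAAA in 6 of 34 (17.6%, against 13.6%). The first pair of motifs share their letters TAAT. These shares were near those of all promoters. The promoters shown hold an OTX core in Mfrp (at -134 from the start) and Car14 (at -61), which differed in level by log2 fold changes of -0.98 and -0.11, and in 1 of 4 Otx2 promoters (at -211, with 3 homeodomain cores), and a TATA box in Cldn2 (at -35) and Kcnj13 (at -29). They are chr9:44101520-44101819 (plus strand) for Mfrp, chr3:95904636-95904935 (minus) for Car14, chr14:48665060-48665359 (minus) for Otx2, chrX:139800558-139800857 (plus) for Cldn2 and chr1:87394680-87394979 (minus) for Kcnj13. Each is written 5′ to 3′ on the gene's strand, with the motifs, in either orientation, in capitals.
Mfrp: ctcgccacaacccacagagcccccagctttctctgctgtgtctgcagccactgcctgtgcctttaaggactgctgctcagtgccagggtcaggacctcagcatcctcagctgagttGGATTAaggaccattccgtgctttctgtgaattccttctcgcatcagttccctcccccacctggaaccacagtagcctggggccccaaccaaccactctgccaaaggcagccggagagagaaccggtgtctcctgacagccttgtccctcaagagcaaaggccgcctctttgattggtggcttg
Car14: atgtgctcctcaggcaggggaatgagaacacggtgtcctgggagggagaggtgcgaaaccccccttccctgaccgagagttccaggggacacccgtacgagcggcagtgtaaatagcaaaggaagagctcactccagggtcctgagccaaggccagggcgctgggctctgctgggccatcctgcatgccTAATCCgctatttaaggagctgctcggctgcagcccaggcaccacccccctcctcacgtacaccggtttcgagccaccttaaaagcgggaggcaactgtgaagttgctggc
Otx2: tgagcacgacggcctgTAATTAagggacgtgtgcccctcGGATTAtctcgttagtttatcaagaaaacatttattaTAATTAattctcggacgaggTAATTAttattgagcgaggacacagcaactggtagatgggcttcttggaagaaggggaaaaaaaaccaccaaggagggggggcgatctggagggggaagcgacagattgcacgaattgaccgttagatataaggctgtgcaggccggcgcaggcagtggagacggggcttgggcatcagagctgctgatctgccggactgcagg
Cldn2: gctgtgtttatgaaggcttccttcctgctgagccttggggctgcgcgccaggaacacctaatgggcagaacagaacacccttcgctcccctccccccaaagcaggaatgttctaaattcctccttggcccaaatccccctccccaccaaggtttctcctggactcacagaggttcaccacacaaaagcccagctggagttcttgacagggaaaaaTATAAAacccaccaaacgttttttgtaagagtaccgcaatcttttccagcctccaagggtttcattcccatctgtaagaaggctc
Kcnj13: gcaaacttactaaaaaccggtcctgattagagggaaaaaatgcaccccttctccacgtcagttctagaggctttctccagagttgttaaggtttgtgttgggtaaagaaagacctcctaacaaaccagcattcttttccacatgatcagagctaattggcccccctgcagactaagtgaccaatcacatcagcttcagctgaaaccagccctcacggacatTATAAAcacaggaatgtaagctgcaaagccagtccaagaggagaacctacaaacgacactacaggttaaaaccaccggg
A match is a run of letters and not a shown binding site, and members with an OTX core were found both among those with large and among those with small differences.

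Junction and keratin genes overlapped between genotypes in all 5 members. Cldn2, the claudin that makes tight junctions of leaky epithelia permeable to cations, was at 4.38, 3.88, 3.14 and 4.32 CPM in NTg and 1.96, 1.92, 1.69 and 3.31 CPM in Tg (fitted log2 fold change -0.82, SE 0.21, edgeR adjusted p = 0.230, DESeq2 adjusted p = 0.0113). Only Tg replicate 4 reached into the NTg range. Cgnl1, a paralogue of cingulin at tight and adherens junctions that endothelium expresses too, was at 36.9, 41.0, 32.4 and 39.9 CPM in NTg and 37.4, 36.0, 32.2 and 33.3 CPM in Tg (fitted log2 fold change -0.11, adjusted p = 0.866). Perp (-0.17), Krt8 (-0.30) and Krt18 (-0.50) had edgeR adjusted p-values of 0.719 to 0.939, and single libraries set much of their size. The value was -0.05 for Perp without NTg replicate 2, and without NTg replicate 4 it was -0.04 for Krt8 and -0.23 for Krt18. Krt8 and Krt18, the keratins of simple epithelia, were at 0.498 to 1.43 and 1.21 to 2.51 CPM in NTg, and both were highest in NTg replicate 4. Both have processed copies in the genome, so their counts are uncertain.

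Among the remaining members, Tmem72, a membrane protein gene, was at 9.48, 11.4, 6.98 and 10.1 CPM in NTg and 4.83, 3.98, 4.23 and 8.80 CPM in Tg. Again only Tg replicate 4 overlapped NTg (log2 fold change -0.80, SE 0.25, edgeR adjusted p = 0.382, DESeq2 adjusted p = 0.0455). Cab39l, a scaffold of the kinases that regulate chloride cotransport and one expressed widely in brain, was at 44.8, 44.4, 45.5 and 47.6 CPM in NTg and 41.2, 37.1, 43.3 and 38.8 CPM in Tg. Its difference was small (log2 fold change -0.18, SE 0.06, edgeR adjusted p = 0.341), yet the groups did not overlap. Calml4, a calmodulin-like gene, ranged from 1.92 to 3.12 CPM in NTg and 1.48 to 1.97 CPM in Tg (-0.61, adjusted p = 0.306). Rdh5, a retinol dehydrogenase gene, stood at 4.18 ± 0.381 and 4.04 ± 0.356 CPM (SD, n = 4; -0.05, adjusted p = 0.974).

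**Figure D4:**
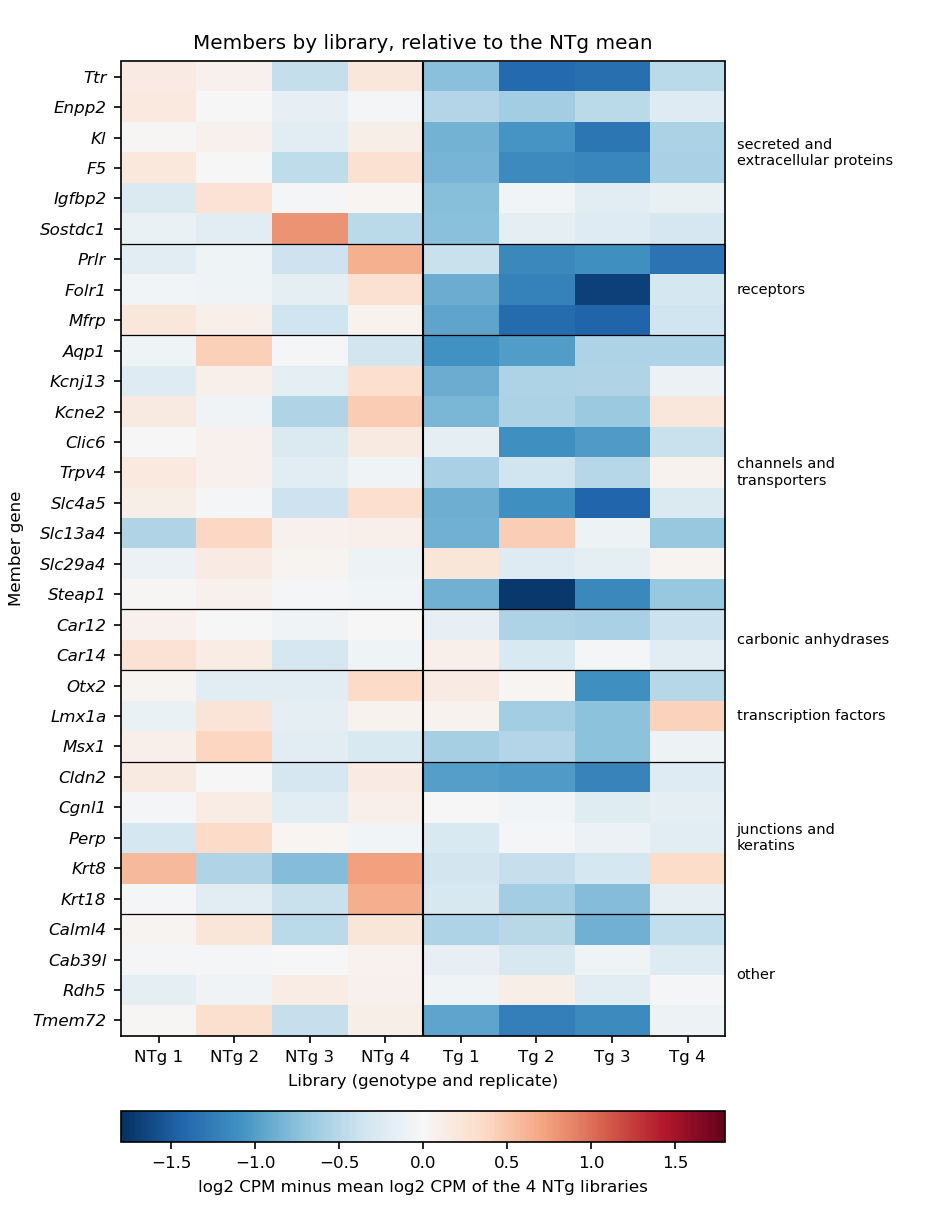
Members (rows, by role) in each library (columns), coloured by log2 CPM minus the mean log2 CPM of the 4 NTg libraries. Most members are blue in Tg replicates 1, 2 and 3 and paler in Tg replicate 4. Slc29a4, Cgnl1 and Rdh5 show little colour, and Slc13a4 and Sostdc1 do not separate by genotype.

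Across the 32 members, 22 lay below the lowest NTg library in Tg replicate 1, 23 in Tg replicate 2, 26 in Tg replicate 3 and 13 in Tg replicate 4. The same counts were not made over all genes, so these only compare the Tg libraries with each other. Tg replicate 4 was the highest Tg library in 18 members, and Tg replicate 3 the lowest in 14. Within NTg, replicate 3 was the lowest library in 21 of 32 members and replicate 4 the highest in 14. Set against the mean of the other 15 members with a mean of 5 CPM or more, Kl was lower in every Tg library than in any NTg library (difference -0.47 on the log2 scale). Slc29a4 (0.50), Cgnl1 (0.42) and Cab39l (0.34) were higher against that mean in every Tg library. The mean of these 16 members itself stood at -0.13 to 0.09 in NTg and -0.64 to -0.39 in Tg. A gene that differs little therefore comes out higher against it, and the fitted log2 fold changes of Slc29a4, Cgnl1 and Cab39l were -0.03, -0.11 and -0.18. These ratios were not formed for all genes. For the other 12 of these 16 members the ratio to the rest overlapped between genotypes, Ttr (-0.53) and Prlr (-0.53) among them.

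Genes beyond the members were read from lists fixed for the same epithelium and for its neighbours, and edgeR called 0 genes in any of them. Of 32 other genes known from choroid plexus epithelium, 23 were lower and 9 higher, 10 lower and 1 higher at an unadjusted p under 0.05, with a median log2 fold change of -0.15. DESeq2 called 1 lower and 1 higher. The higher one, Sulf1, a heparan sulfate sulfatase gene named here after its values were seen, stood at 31.6 ± 2.71 CPM in NTg against 38.2 ± 1.45 CPM in Tg without overlap (log2 fold change 0.27, SE 0.07, edgeR adjusted p = 0.192, DESeq2 adjusted p = 0.0353). The lower one, Slc2a12, a glucose transporter gene, stood at 7.02 ± 0.361 CPM in NTg against 4.75 ± 0.224 CPM in Tg (fitted log2 fold change -0.56, SE 0.08, edgeR adjusted p = 0.0972, DESeq2 adjusted p = 2.09e-06). Wfdc2, a secreted protease inhibitor gene, was at 0.691 ± 0.0911 and 0.355 ± 0.0495 CPM (-0.96, edgeR adjusted p = 0.121). Trpm3, a cation channel gene, was at 132 ± 17.9 and 109 ± 10.7 CPM (-0.27, adjusted p = 0.536) and the ascorbate transporter gene Slc23a2 at 177 ± 8.48 and 179 ± 9.84 CPM. Both levels exceeded those of every member except Ttr and Enpp2, the next being Cab39l with a mean of 42.8 CPM. The list was not limited to genes found only in this epithelium, and the part of other cell types in its values was not tested.

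The pumps and cotransporters that act with these members in fluid secretion are used by other brain cells too. Of 18 such genes, 11 were lower and 7 higher, with a median of -0.04, 4 lower and 2 higher at an unadjusted p under 0.05 and 0 called by DESeq2. Atp1b1, a sodium pump beta subunit gene, was at 1386 ± 53.0 CPM in NTg against 1244 ± 42.2 CPM in Tg (log2 fold change -0.16, edgeR adjusted p = 0.379). Oxsr1, a kinase that activates chloride cotransport, was at 81.8 ± 1.19 and 75.1 ± 2.12 CPM (-0.12, adjusted p = 0.371), and Fxyd1, a sodium pump modulator, was higher at 26.9 ± 3.81 and 38.3 ± 8.27 CPM (0.51, adjusted p = 0.3495). For the thyroid hormone and retinol route that Ttr serves, 10 of 13 genes were lower (median -0.04, 1 lower at an unadjusted p under 0.05). Slco1c1, the thyroxine transporter of brain endothelium and choroid plexus, stood at 52.0 ± 3.83 CPM in NTg against 39.7 ± 3.19 CPM in Tg without overlap (log2 fold change -0.39, SE 0.07, edgeR adjusted p = 0.121, DESeq2 adjusted p = 0.000448). Thra, a thyroid hormone receptor gene, was at 474 ± 31.2 and 450 ± 44.4 CPM. Of 7 klotho partners and shedding proteases, 4 were lower and 3 higher (median -0.00025), and DESeq2 called the FGF receptor genes Fgfr2 (78.4 ± 1.97 to 65.4 ± 5.31 CPM, adjusted p = 0.0121) and Fgfr3 (108 ± 7.12 to 90.7 ± 3.13 CPM, adjusted p = 0.00654), which edgeR did not (0.169 and 0.167). Roof plate regulators beyond the 3 members had a median of -0.03, with 9 of 16 lower and 0 past an unadjusted p of 0.05.

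Neighbouring cell types were measured in the same libraries. Ependymal genes, from the ciliated lining of the same ventricles, had a median log2 fold change of 0.06, with 3 of 11 lower and 0 past an unadjusted p of 0.05 (summed 55.3 to 74.7 CPM in NTg and 59.8 to 76.3 CPM in Tg). Endothelial genes were lower in 12 of 13 (median -0.30, 6 lower at an unadjusted p under 0.05, DESeq2 calling 2 lower), with Abcb1a at 36.7 ± 2.15 and 29.8 ± 2.51 CPM and Flt1 at 61.1 ± 4.51 and 47.6 ± 7.59 CPM. The summed endothelial level was 375 to 434 CPM in NTg and 322 to 387 CPM in Tg. The mean of that list was lowest in Tg replicate 4, at -0.44 relative to the NTg mean, the Tg library with the highest member score. The part of endothelium in the member differences was not tested. Pericyte and smooth muscle genes had a median of -0.07 with 6 of 8 lower.

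Red blood cell genes were lower in 8 of 8 (median -0.83, 0 past an unadjusted p of 0.05), with a summed level of 1445 to 3433 CPM in NTg and 622 to 3159 CPM in Tg. In Tg replicate 1 that list stood 0.52 above the NTg mean while the member score stood at -0.52. Microglial genes had a median of 0.64, with 8 of 8 higher and 5 called higher by DESeq2. Of 8 genes listed for border and epiplexus macrophages (median 0.18), DESeq2 called 2 higher, Cst7 (3.06) and Clec7a (1.32), which microglia near plaques are known to express too, and the other 6 lay between -0.13 and 0.54 with 0 past an unadjusted p of 0.05. Of 8 astrocyte genes (median 0.09), DESeq2 called 2 higher and 1, Fgfr3, lower. In Tg replicate 1 the means of the microglial, macrophage and astrocyte lists stood at 0.25, -0.11 and 0.05 relative to the NTg mean. In Tg replicates 2 to 4 they stood at 0.88 to 0.92, 0.70 to 0.93 and 0.29 to 0.38. Neurons (-0.08) and the regional lists of hippocampus (-0.13), thalamus and habenula (-0.29), hypothalamus (-0.20), striatum (-0.06) and cerebellum and hindbrain (0.17) held 0 genes called by edgeR or DESeq2. At an unadjusted p under 0.05, 1 gene was lower in each of the neuron and thalamus lists, and 1 was higher in the hippocampus list. The parts of these lists in the member differences were not tested.

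**Figure D5:**
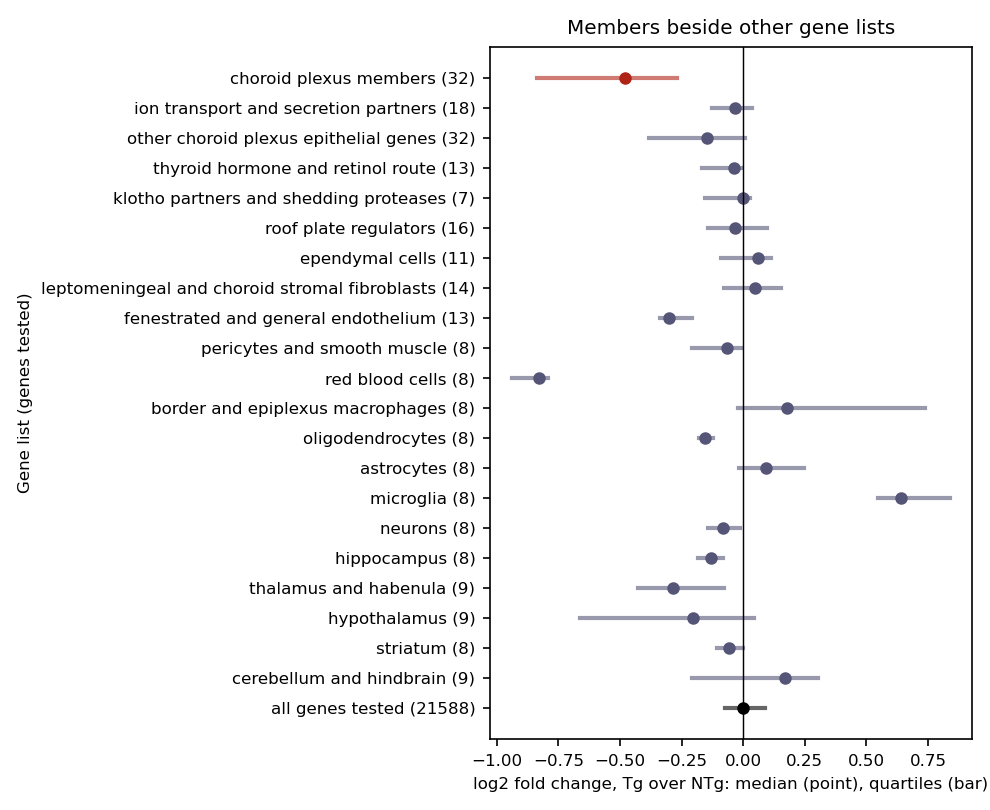
Median (point) and quartiles (bar) of the fitted log2 fold changes, Tg over NTg, in the 32 members, 20 other lists and all genes tested, with the number of genes tested in parentheses. The members lie at -0.48, the red blood cell list at -0.83 and the microglia list at 0.64.

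Genes outside the list with the most similar profile were found by the root mean square difference, over the 8 libraries, between a gene's log2 CPM and the member score, each centred on its own mean, among 16297 genes with a symbol and a mean of 1 CPM or more. The 10 nearest lay at 0.12 to 0.17 log2 units, where the median gene lay at 0.32 and the 16 more abundant members at 0.12 to 0.52. Slc2a12 (0.12) was among them. Others were Abca4, a retinoid flippase gene (6.35 to 4.35 CPM), Cys1, which encodes cystin of primary cilia (7.99 to 5.90 CPM), Cpm, which encodes carboxypeptidase M (17.0 to 13.7 CPM), and Ace, which encodes angiotensin-converting enzyme (24.5 to 19.8 CPM), each given as the NTg and then the Tg mean. The remaining 5 were Gm17634, Selenbp2, Mypn, Pdlim1 and Gm13446. All were selected for a profile that differs between genotypes, so their differences are not tested here.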

How the data were processed

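Poly(A) RNA of 8 forebrain libraries was sequenced as paired-end reads (TruSeq kit version 2, which does not mark strand), per the labels' protocols. The authors deposited a table of unnormalized whole-number counts, 1 row per Ensembl gene; STAR, DESeq2 and GRCm39 are named in the submitters' processing notes, while for the counting tool and the annotation release the sources used here name none. Columns were matched to samples by library name, and 0 columns belonged to other series. Symbols from a name table covered 52073 identifiers (99.58% of counts).

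Genes passing filterByExpr of edgeR 4.0.16 (minimum count 10, minimum total 15; 21588 genes) were scaled by TMM and tested with the quasi-likelihood F test, with Benjamini-Hochberg adjustment over all of them and a threshold of 0.05. In R 4.3.3, limma 3.58.1 (voom) on the same genes and DESeq2 1.42.0 served as alternatives. DESeq2 was run on all 39716 genes with a count, with its own filtering, and gave an adjusted p for 21199. Its calls thus differ from those of edgeR in gene set as well as in test. CPM use TMM-scaled library sizes, log2 CPM a prior count of 2, and the SE is the log2 fold change divided by the square root of F. Levels per kb use exon lengths of GENCODE M21, on an older build. No 2 libraries of a genotype agreed within sampling noise (chi-square per degree of freedom 10.9 or more). Scripts were tested on simulated data.

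The members and lists (222 genes in 20 lists) were chosen with earlier results of these data known. Named were all members, with values in every library from a mean of 5 CPM, from some of the other lists genes among the 2 with the smallest p or the 2 with the highest CPM, and the 10 most similar profiles. The rule allows up to that many per list, and most lists of other cell types and regions are given by counts and medians only. A gene within the rule is not reported here. Cldn2 is given by library although its mean is lower. Alternatives were other scaling, filters, robust dispersion, the replicate number as a block, and each library left out.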

Additional observations from a re-analysis of the deposited data

Results flagged for a closer look

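Of 66 sets of 4 libraries examined (each member in each genotype, and the score), 2 held a library far from the other 3 by Dixon's criterion, and chance alone flags about 1 in 20. Cldn2 stood at 3.31 CPM in Tg replicate 4 against 1.69 to 1.96 CPM in the other Tg libraries. Krt8 stood at 1.08 CPM in the same library against 0.641 to 0.688 CPM in the others. Tg replicate 4 was also the highest Tg library in 18 of the 32 members.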

How the results depend on the processing

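The sign of the log2 fold change was negative for 29 of the 32 members in each of the 17 settings that tested them. Single libraries turned it for the other 3 when left out, with ranges of -0.12 to 0.034 for Slc29a4, -0.39 to 0.0023 for Lmx1a and -0.10 to 0.0026 for Rdh5. The same held for Slc23a2 (-0.0077 to 0.042), Dcn (-0.16 to 0.035) and Ptgds (-0.27 to 0.18) outside the members. Leaving out 1 library moved the log2 fold change by over 1.5 times in 13 members (Igfbp2, Sostdc1, Kcne2, Slc13a4, Slc29a4, Car14, Otx2, Lmx1a, Cgnl1, Perp, Krt8, Krt18 and Rdh5), 0 of which edgeR or DESeq2 called.

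The number of members called lower, 0 with edgeR, was 12 with DESeq2, 4 with no filter on low counts (Ttr, Enpp2, Kl and F5), 1 at an FDR of 0.1 (Kl), and 0 to 3 with 1 library left out, the 3 (Kl, Prlr and Car12) without Tg replicate 1. Over all genes edgeR called 3, against 349 with DESeq2, 127 with no filter and 3 to 314 with 1 library left out (314 without Tg replicate 1, 16 without NTg replicate 1 and 9 without Tg replicate 2). Members that did not overlap numbered 10 to 19 with 1 library left out, against 2.29 to 4.19% of all genes. The members' median ranged from -0.62 to -0.44 and the score difference from -0.62 to -0.47 over left-out libraries. The causes were not tested.

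With the replicate number as a block, edgeR called 1 gene in all and 0 members, with 21 members lower at an unadjusted p under 0.05 (2.45% of all genes). Deviations of same-numbered libraries correlated at -0.03 to 0.16, and 2 of 4 NTg libraries matched the Tg library of their own number best, so the numbers are not taken to pair the samples. At low depth the precision is limited by counts, the fewest being 19 for Steap1 in 1 library.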
